A study of Mus musculus with 9 samples.

Results

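Pcdhb2 to Pcdhb11, the run of genes that follows Pcdhb1 at the start of the mouse protocadherin beta array, were taken from the deposited expression table by gene symbol. They are 10 of its 25965 genes and were ordered by their start on chromosome 18. Cultures of neural stem cells, the dividing progenitors of the developing brain, had been derived from Smchd1 fl/fl C57BL/6 embryos of stage E14.5, and each established line was divided. The deleted cultures (Smchd1 del/del) received MSCV-Cre-puro, a retrovirus that carries Cre recombinase and puromycin resistance, were kept in puromycin from 24 h, and were harvested 7 days after transduction. Their controls (Smchd1 fl/fl) carry the intact floxed alleles and were left untransduced, so loss of Smchd1, the retrovirus and puromycin cannot be told apart. RNA-seq covered 4 del/del libraries, from female lines 1, 2 and 3 and male line 5, and 5 fl/fl libraries, from the same lines and male line 7. The series' design text calls all lines female and the controls del/fl, and the sample labels were followed here. Same-numbered cultures are parts of 1 line, and each line counts as 1 replicate. In such bulk RNA, more cells that express a gene and more RNA in each cell cannot be told apart.

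Protocadherins are cell surface adhesion proteins related to the cadherins, and the clustered ones lie in the alpha, beta and gamma arrays on 1 stretch of chromosome. In neurons each cell draws a small set of promoters from the arrays, and the mixture of proteins at its surface lets branches of the same cell recognise and avoid each other. Each beta gene is a single exon that encodes a whole protein, whereas alpha and gamma exons are spliced to constant exons shared within their array. Smchd1, a noncanonical member of the SMC group of chromosome proteins, maintains gene silencing on the inactive X chromosome and at some autosomal clusters, clustered protocadherins among them. No separate role is assigned here to the single beta genes beyond the adhesive specificity that each encodes.

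In mm10 the 10 rows run from chr18:37294840-37297613 (Pcdhb2) to chr18:37421418-37425032 (Pcdhb11), a span of 130.2 kb. Each named transcript is a 1-exon gene on the plus strand in GENCODE vM21, and a coding stretch of 2319 to 2490 bases lies inside each row, or equals it in Pcdhb8. Neighbours lie 2.87 to 10.1 kb apart, except Pcdhb8 (chr18:37355271-37357610) and Pcdhb9 (chr18:37400855-37403909), which are 43.2 kb apart. No member row overlaps another row of the table, although the annotated protein-coding genes Gm42416, Gm37013 and Gm37388 extend over all of them. Members share short stretches of sequence. Between 2.10% (Pcdhb2) and 9.52% (Pcdhb11) of the 50-base words of a member's transcript recur in transcripts of other genes. Some of these transcripts are longer than the row, 4419 against 3615 bases in Pcdhb11 and 3729 against 2453 in Pcdhb6. Shared words may thus lie outside the rows. The largest overlap within the set, 189 words, is between Pcdhb7 and Pcdhb9, followed by 160 words between Pcdhb6 and Pcdhb8. Pcdhb10 and Pcdhb11 share most with Gm37446, an antisense gene on the minus strand at chr18:37433412-37437547. No source used here gives the treatment of reads that fit several genes or any use of strand.

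The authors deposited each level as log2 RPM, that is reads scaled to a common library total, and whole reads could be recovered from these values. Libraries held 24.1 M to 116.6 M reads, of which 34.8% to 53.3% fell in listed genes. The female fl/fl 2 library was the shallowest, with 12.9 M reads in listed genes against 32.9 M to 44.9 M in the others. A member had 28 to 520 reads in the other 8 libraries but 3 to 52 in female fl/fl 2. The 3-read detection floor lay at a log2 RPM of -3.01 there and at -5.28 to -4.62 in the others. Smchd1 itself was lower in del/del (5.21 ± 0.13 log2 RPM, SD, n = 4) than in fl/fl (6.39 ± 0.25, n = 5), by a log2 fold change of -1.19 (limma, adjusted p = 0.00751). The del/del libraries still held 3047 to 3822 Smchd1 reads.

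All 10 genes averaged higher in del/del than in fl/fl cultures. Added together they gave 23.2 ± 2.07 RPM in del/del (SD, n = 4) and 8.03 ± 1.01 RPM in fl/fl (n = 5), which is 2.88-fold. The del/del sums were 24.2, 25.1, 20.3 and 23.0 RPM in lines 1, 2, 3 and 5, and the fl/fl sums were 6.84, 9.16, 8.96, 7.34 and 7.87 RPM in lines 1, 2, 3, 5 and 7. The lowest del/del sum thus lay above the highest fl/fl sum. For 9 of the 10 genes every del/del library was above every fl/fl library, an arrangement found for 4.17% of all listed genes. Pcdhb10 was the exception on the deposited scale. Within the 4 lines that had both cultures, del/del was above fl/fl in 40 of 40 comparisons of a gene and a line, and 13.7% of all listed genes were higher in all 4 lines.

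**Figure D1:**
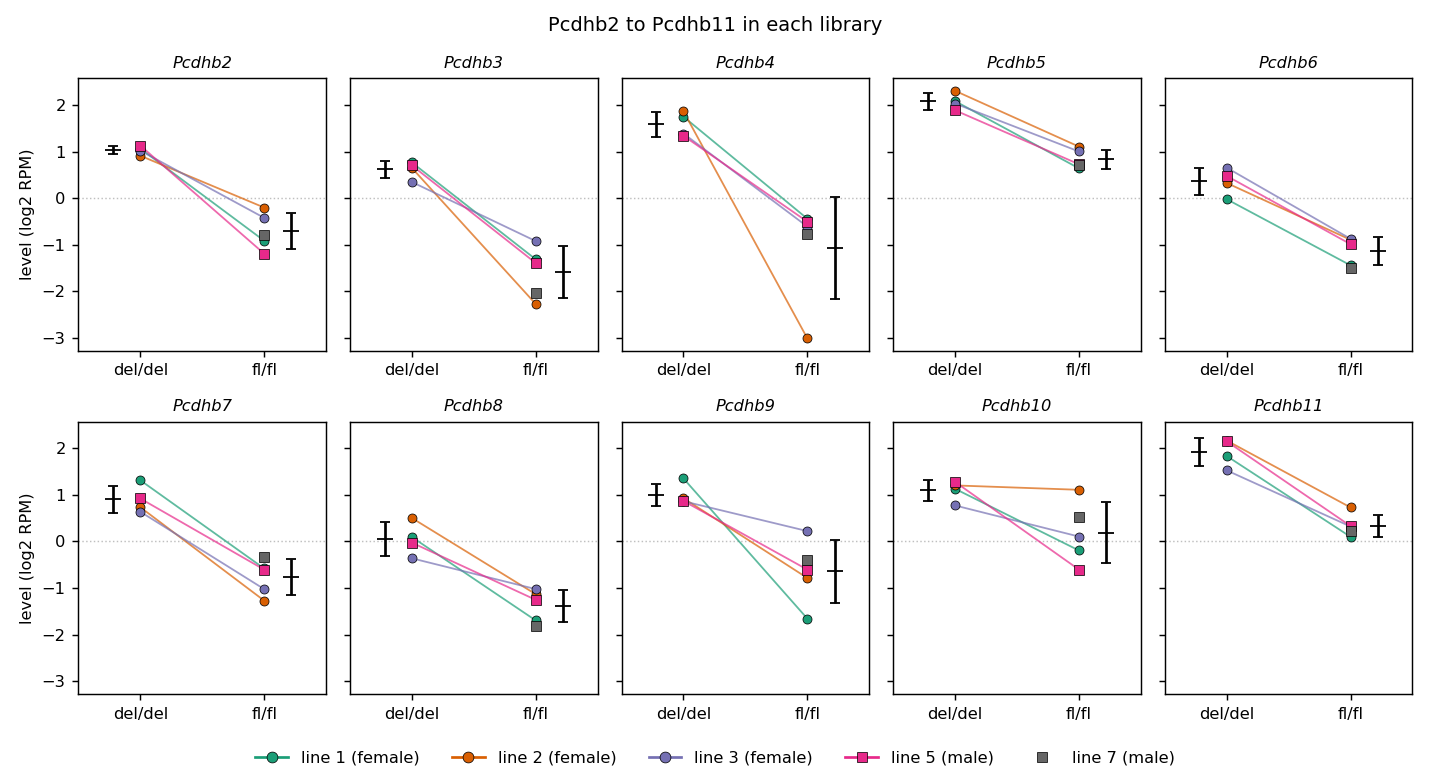
Level (log2 RPM) of each of the 10 genes in every library, del/del on the left and fl/fl on the right of each panel; lines join the cultures of 1 line, and black bars give the mean ± SD of the 4 del/del and the 5 fl/fl libraries. On this scale the groups are apart in every panel but that of Pcdhb10, and the lowest point is Pcdhb4 in female fl/fl 2, at -3.01.

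Pcdhb2, Pcdhb3 and Pcdhb4 lie at the start of the span. Pcdhb2 had levels of 1.07, 0.91, 1.02 and 1.13 log2 RPM in del/del lines 1, 2, 3 and 5, against -0.91, -0.20, -0.42, -1.19 and -0.78 in fl/fl lines 1, 2, 3, 5 and 7. All 4 del/del libraries stood close together and the fl/fl libraries spread below them. Its log2 fold change was 1.70 (SE 0.26), with an adjusted p of 0.0157 by limma. Unless stated otherwise, the p-values of single genes come from a test filtered on level, whose limit follows after Pcdhb11. Pcdhb3 (chr18:37300799-37304585) had levels of 0.77, 0.65, 0.35 and 0.70 in del/del lines 1, 2, 3 and 5, against -1.31, -2.27, -0.92, -1.39 and -2.04 in fl/fl lines 1, 2, 3, 5 and 7. The groups did not overlap, and the fold change was larger, 2.19 on the log2 scale (SE 0.39, adjusted p = 0.0237).

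Pcdhb4 (chr18:37307455-37311173) had the largest fold change of the 10. Its levels were 1.75, 1.87, 1.39 and 1.34 log2 RPM in del/del lines 1, 2, 3 and 5, against -0.44, -3.01, -0.61, -0.50 and -0.76 in fl/fl lines 1, 2, 3, 5 and 7. Female fl/fl 2 fell far below the other fl/fl libraries, which ran from -0.76 to -0.44. The log2 fold change was 2.70 (SE 0.52, adjusted p = 0.0350). In line 2 the 2 cultures had 383 reads (del/del) and 3 reads (fl/fl), a ratio of 29.3 whose 95% counting interval ran from 9.94 to 143, and the fl/fl value lay at the detection floor. Lines 1, 3 and 5 gave 3.59- to 4.56-fold, and without female fl/fl 2 the log2 fold change was 2.11. Pcdhb4 was thus higher in del/del with and without that library, while the size of the difference depended on it.

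Next along the array, Pcdhb5 (chr18:37320381-37323913) had levels of 2.08, 2.31, 2.03 and 1.89 log2 RPM in del/del lines 1, 2, 3 and 5, against 0.64, 1.11, 1.00, 0.73 and 0.71 in fl/fl lines 1, 2, 3, 5 and 7. Both groups were tight and did not overlap. Its log2 fold change of 1.21 (SE 0.15, adjusted p = 0.00751) was among the smaller ones, with the most reads behind it. Pcdhb6 (chr18:37333946-37336398) had levels of -0.020, 0.33, 0.66 and 0.48 in del/del lines 1, 2, 3 and 5, against -1.44, -0.89, -0.87, -0.99 and -1.49 in fl/fl lines 1, 2, 3, 5 and 7. Its groups were apart as well, yet the difference of 1.49 (SE 0.32) missed the threshold (adjusted p = 0.0599). With line as a replicate block it passed (log2 fold change 1.41, adjusted p = 0.0136), and the background of genes called higher in that fit was 3.77%.

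Pcdhb7 (chr18:37341702-37345207) had levels of 1.31, 0.74, 0.64 and 0.92 log2 RPM in del/del lines 1, 2, 3 and 5, against -0.58, -1.27, -1.02, -0.60 and -0.33 in fl/fl lines 1, 2, 3, 5 and 7. Each del/del culture was above all fl/fl cultures, by a log2 fold change of 1.71 (SE 0.28, adjusted p = 0.0188). Pcdhb8 had levels of 0.094, 0.50, -0.36 and -0.026 in del/del lines 1, 2, 3 and 5, against -1.70, -1.13, -1.02, -1.25 and -1.81 in fl/fl lines 1, 2, 3, 5 and 7. It was the only member below the filter of the test, a log2 RPM of at least 0 in at least 3 libraries, which it reached in 2. Tested with no filter, Pcdhb8 gave 1.41 (SE 0.31, adjusted p = 0.0529), and with no filter and the line block 1.33 (adjusted p = 0.00308).

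Beyond the 43.2 kb gap, Pcdhb9 had levels of 1.35, 0.93, 0.86 and 0.87 log2 RPM in del/del lines 1, 2, 3 and 5, against -1.66, -0.78, 0.22, -0.60 and -0.39 in fl/fl lines 1, 2, 3, 5 and 7. Female line 1 held both the highest del/del and the lowest fl/fl value. The groups did not overlap, but the difference of 1.66 (SE 0.37) missed the threshold at an adjusted p of 0.0680. With the line block Pcdhb9 passed at 1.71 (adjusted p = 0.0333).

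Pcdhb10 (chr18:37411674-37414514) had levels of 1.13, 1.20, 0.77 and 1.28 log2 RPM in del/del lines 1, 2, 3 and 5, against -0.19, 1.11, 0.10, -0.60 and 0.53 in fl/fl lines 1, 2, 3, 5 and 7. Female fl/fl 2 lay inside the del/del range and male fl/fl 7 was the next highest, so the groups overlapped. Its log2 fold change was 0.89 (SE 0.34, 95% interval 0.13 to 1.64, adjusted p = 0.372), and the line block with the same filter left it at 0.99 (adjusted p = 0.110). Pcdhb11 had levels of 1.83, 2.17, 1.53 and 2.15 in del/del lines 1, 2, 3 and 5, against 0.10, 0.73, 0.32, 0.33 and 0.23 in fl/fl lines 1, 2, 3, 5 and 7. These groups were well apart, with a log2 fold change of 1.59 (SE 0.21, adjusted p = 0.00835).

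In the filtered test 6 of the 9 members tested rose (Pcdhb2, Pcdhb3, Pcdhb4, Pcdhb5, Pcdhb7 and Pcdhb11), against a background of 1.45% of genes called higher. Pcdhb2, Pcdhb3, Pcdhb4, Pcdhb6 and Pcdhb7 reached the filter through del/del libraries alone. This count, all later counts with the filter and the filtered p-values of these genes are therefore given for completeness, and nothing is read from them. For these genes the unfiltered adjusted p by limma was 0.00620, 0.00711, 0.0156, 0.0246 and 0.00737, in that order. With no filter all 10 genes enter: 8 rose and Pcdhb8 and Pcdhb10 did not pass, against a background of 1.07%. The median log2 fold change of the 10 was 1.62, and that of all genes in the same fit was -0.03. With no filter and the line block all 10 rose (background 3.91%), Pcdhb10 by 0.99 at an adjusted p of 0.00517. With the filter and the line block Pcdhb10 had the same 0.99 at an adjusted p of 0.110. Its call thus depended on which genes entered the fit. Pcdhb11 likewise kept a block estimate of 1.55, while its unadjusted limma p went from 8.72e-06 with the filter to 5.96e-10 without. The spread is borrowed across all genes of a fit, and the line block leaves few libraries to estimate it. Without male del/del 5, the only male library of its group, the fit with sex as covariate compares the genotypes in females alone. This omission thus takes all male libraries out of the comparison, and the log2 fold changes are those of the female fit. They ran from 0.70 (Pcdhb10) to 3.02 (Pcdhb4) over all 10. None of the 10 passed with or without the filter by limma, against backgrounds of 0.0142% with it and 0.123% without. With no filter 9 of 10, all but Pcdhb10, kept an unadjusted p under 0.05 (background 5.05%). Without female del/del 1, 2 or 3, and with no filter, 6, 5 and 6 of 10 passed (backgrounds 0.578%, 0.493% and 0.728%). The same omissions with the filter left 2, 2 and 3 of 9 (backgrounds 0.434%, 0.356% and 0.897%), and quantile normalization left 2 (background 0.612%).

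The spread between libraries exceeded counting error for most genes but not for all. Among del/del libraries Pcdhb2 varied by an SD of 0.091 log2 units, where counting error alone amounts to 0.10. Pcdhb5 (0.17 against 0.073), Pcdhb7 (0.30 against 0.11) and Pcdhb11 (0.30 against 0.078) varied by more than their reads alone give. Among fl/fl libraries the spread was widest for Pcdhb4 (1.09 against 0.40), which dropped to 0.14 (counting error 0.17) without female fl/fl 2. Pcdhb9 and Pcdhb10 stayed variable in fl/fl, with SDs of 0.68 and 0.66 over the 5 libraries and 0.78 and 0.48 without female fl/fl 2, where counting error gives 0.18 and 0.14.

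Set side by side within lines, the folds varied between genes and between lines. Pcdhb6 was the steadiest, 2.33- to 2.88-fold in the 4 lines, and Pcdhb5 followed with 2.04- to 2.72-fold. Pcdhb9 ranged widest apart from Pcdhb4, at 8.05-fold in line 1, 3.28-fold in line 2, 1.56-fold in line 3 and 2.78-fold in line 5. The counting intervals of its line 1 (5.64 to 11.8) and line 3 (1.24 to 1.97) folds were far apart. Pcdhb10 gave 2.50, 1.07, 1.59 and 3.69-fold in lines 1, 2, 3 and 5. On the deposited scale its line 2 interval, 0.79 to 1.47, was the only one of the 40 to include 1.

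By line, the median log2 difference over the 10 genes was 1.84 in line 1, 1.54 in line 2, 1.24 in line 3 and 1.67 in line 5. The same medians over the 14044 genes that passed the filter were 0.22, -0.25, 0.10 and 0.08. The deposited scaling leaves the share of reads in listed genes unequal: scaling to the reads in listed genes instead would move all line 2 differences by 0.50 and those of lines 1, 3 and 5 by -0.27, -0.12 and -0.09. On that scale Pcdhb10 in line 2 becomes 0.60 rather than 0.094 log2 units. The mean over the 4 lines moves little, for Pcdhb10 1.00 against 0.99, because the shifts nearly cancel.

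**Figure D2:**
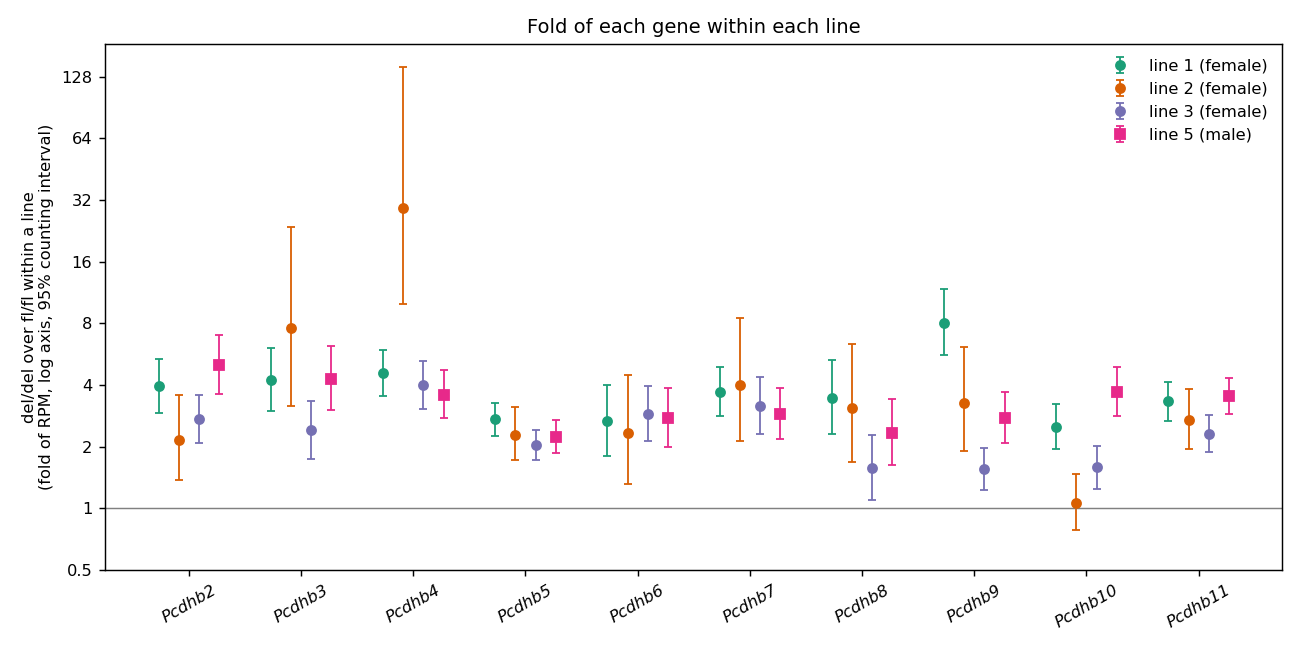
Fold (del/del over fl/fl, RPM, log axis) of each gene within lines 1, 2, 3 (female) and 5 (male); bars are 95% counting intervals. All points lie above 1, and Pcdhb4 in line 2 (29.3-fold, on 3 fl/fl reads) stands highest. Pcdhb10 in line 2 (1.07-fold) is the only one whose interval includes 1 on this scale.

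Female and male cultures were also fitted apart, in a model of 4 group means. The limit of the filter given above holds for every count out of 9 here, and nothing is read from these counts. In females all 9 members tested had positive log2 fold changes, from 0.70 (Pcdhb10) to 3.02 (Pcdhb4). None passed the adjusted threshold by limma (0 of 9, background 0.0142%), 8 of 9 had an unadjusted p under 0.05 (background 5.9%), and voom on the recovered reads called 1, Pcdhb5 (background 0.192%). Without the filter 1 passed (background 0.227%), and on log2(RPM + 1) 2 passed (background 0.271%). With the line block 7 of 9 rose in females (background 1.87%), all but Pcdhb6 (adjusted p = 0.0676) and Pcdhb10 (adjusted p = 0.417). In males, where 1 del/del library stood against 2 fl/fl libraries, its spread borrowed from the remaining groups, fold changes ran from 1.17 (Pcdhb5) to 2.42 (Pcdhb3). None passed by limma or by voom (0 of 9, background 0.0%), with 6 of 9 under an unadjusted p of 0.05 by limma (background 2.04%) and 9 of 9 by voom (background 3.58% in either direction).

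The effect in females minus that in males ran from -0.62 (Pcdhb10) to 1.04 (Pcdhb4). No member passed by limma or voom (0 of 9, background 0.0%), and none had an unadjusted p under 0.05 by either (background 0.0427%). The intervals were wide: -1.53 to 3.62 for Pcdhb4, -2.34 to 1.10 for Pcdhb10 and -0.77 to 0.88 for Pcdhb5. Female against male fl/fl cultures differed by -0.72 (Pcdhb4) to 0.48 (Pcdhb2) on the log2 scale. No member passed there by limma or voom, none had an unadjusted p under 0.05 by either, where 0.0142% of genes were called higher in females, 0.0214% lower and 0.0997% had an unadjusted p under 0.05.

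Levels of different genes were compared as RPM per kb of row. Pcdhb5 was the highest on average in both groups, 1.20 ± 0.15 RPM per kb in del/del (SD, n = 4) and 0.51 ± 0.07 in fl/fl (n = 5). Pcdhb3 was the lowest in both, 0.41 ± 0.05 in del/del and 0.093 ± 0.034 in fl/fl. In del/del the averages then descended from Pcdhb11 (1.06 ± 0.21) through Pcdhb4 (0.82 ± 0.15), Pcdhb10 (0.76 ± 0.11), Pcdhb2 (0.74 ± 0.05), Pcdhb9 (0.66 ± 0.12), Pcdhb7 (0.54 ± 0.12) and Pcdhb6 (0.53 ± 0.10) to Pcdhb8 (0.45 ± 0.11). Neighbours in this order differed by less than the larger of their SDs, except Pcdhb11 from Pcdhb4 and Pcdhb9 from Pcdhb7. In fl/fl, Pcdhb10 (0.44 ± 0.21) and Pcdhb11 (0.35 ± 0.06) followed Pcdhb5, and Pcdhb4 (0.15 ± 0.07) came just above Pcdhb3.

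The make-up of the combined signal was described by the share of each gene. Pcdhb4 made up 11.3 ± 1.38% of the summed reads per kb in del/del and 6.29 ± 3.16% in fl/fl. Pcdhb3 made up 5.67 ± 0.40% in del/del and 3.76 ± 1.45% in fl/fl, and Pcdhb5 16.8 ± 1.73% in del/del and 20.2 ± 0.85% in fl/fl. The shares of these 3 genes did not overlap between groups, but the margins were narrow. The lowest del/del share was 9.52% for Pcdhb4 and 5.30% for Pcdhb3, against a highest fl/fl share of 9.36% and 5.02%. For Pcdhb5 the highest del/del share was 18.3% and the lowest fl/fl share 18.7%. Such shares have no background over all genes here, so nothing is read from this count. The shares of the other 7 overlapped. Among them was Pcdhb10 with 10.5 ± 1.02% in del/del and 16.9 ± 6.23% in fl/fl, where it reached 25.7% in female fl/fl 2. Shares sum to a whole, so a higher share of 1 gene lowers the rest. They are given as a description, without a test.

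**Figure D3:**
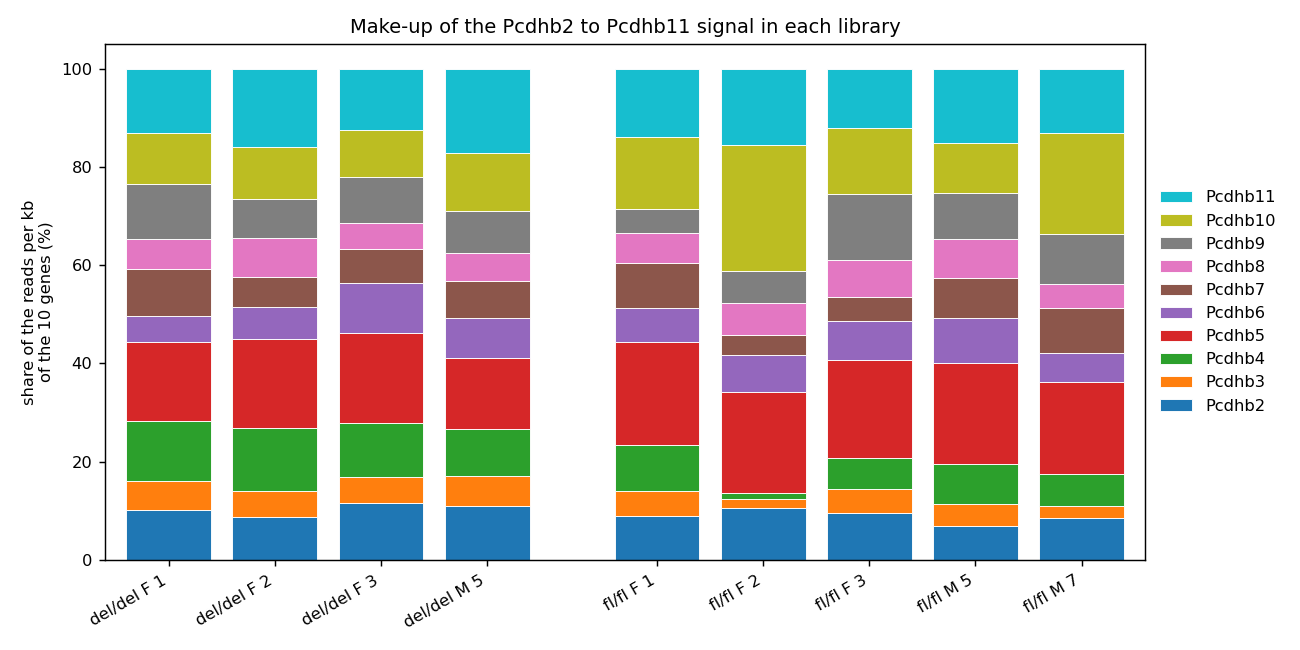
Share (%) of each gene in the summed reads per kb of the 10 genes, 1 bar per library, del/del libraries on the left and fl/fl libraries on the right. Pcdhb5 takes 14.6% to 18.3% in del/del and 18.7% to 20.8% in fl/fl, and the Pcdhb4 band narrows to 1.13% in female fl/fl 2.

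Across the 9 libraries the levels of the 9 members that passed the filter were positively correlated. Pearson's r between pairs of members had a median of 0.85 over 36 pairs and ran from 0.34 to 0.97, which mixes the difference between groups with any covariation inside them. The genes outside the protocadherin arrays whose pattern was most like the members' mean were Pyhin1 (r = 0.99), Sfmbt2 (0.99), Gbp8 (0.98), Nefm (0.98) and Gbp9 (0.98), each over 9 libraries that share 1 table and its scaling. They were picked for a high r and each also rose in del/del, so these values again mix in the difference between groups. The rows of Gbp8 and Gbp9 overlap, so reads may count for both. Pyhin1, named for a family of interferon-inducible proteins, was at 1.01 to 1.37 log2 RPM in del/del and -1.71 to -1.42 in fl/fl.

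Beyond Pcdhb11 the fold changes differed from gene to gene. Pcdhb12 and Pcdhb13, the next genes, gave log2 fold changes of 1.10 (SE 0.29, adjusted p = 0.128) and 1.21 (SE 0.39, adjusted p = 0.274) with no filter, on 6 to 126 reads per library, and their groups did not overlap. With no filter and the line block Pcdhb12 passed (1.16, adjusted p = 0.00517) and Pcdhb13 did not (1.13, adjusted p = 0.111). Pcdhb14 was at 0.64 in the filtered test (SE 0.15, adjusted p = 0.0837), again without overlap, and passed with no filter and the line block (0.66, adjusted p = 0.0135). From Pcdhb15 to Pcdhb22 every gene overlapped between the groups, with unfiltered log2 fold changes of 0.12 to 0.41 and no call. In the filtered test 0 of the 8 kept beta genes outside the 10 passed by limma (background 1.45%). Pcdhb12 and Pcdhb13 missed the filter and are not among these 8, so nothing is read from the count. Whether the members differ from the other beta genes as a class was not tested.

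Levels along the array ran differently from fold changes. The genes from Pcdhb17 to Pcdhb20 and Pcdhb22 had 1.33 to 2.40 RPM per kb in del/del and 1.20 to 1.92 in fl/fl, above Pcdhb5, the highest member, in both groups. Pcdhb1, upstream of Pcdhb2, held 14 reads over the 4 del/del libraries and none over the 5 fl/fl libraries, too few for a comparison. In the alpha array the single row, Pcdhac1, covers a long span and rose by 1.27 on the log2 scale (SE 0.17, adjusted p = 0.00840), and in the gamma array the single row, Pcdhga11, was at 0.03 (SE 0.19, adjusted p = 0.998).

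**Figure D4:**
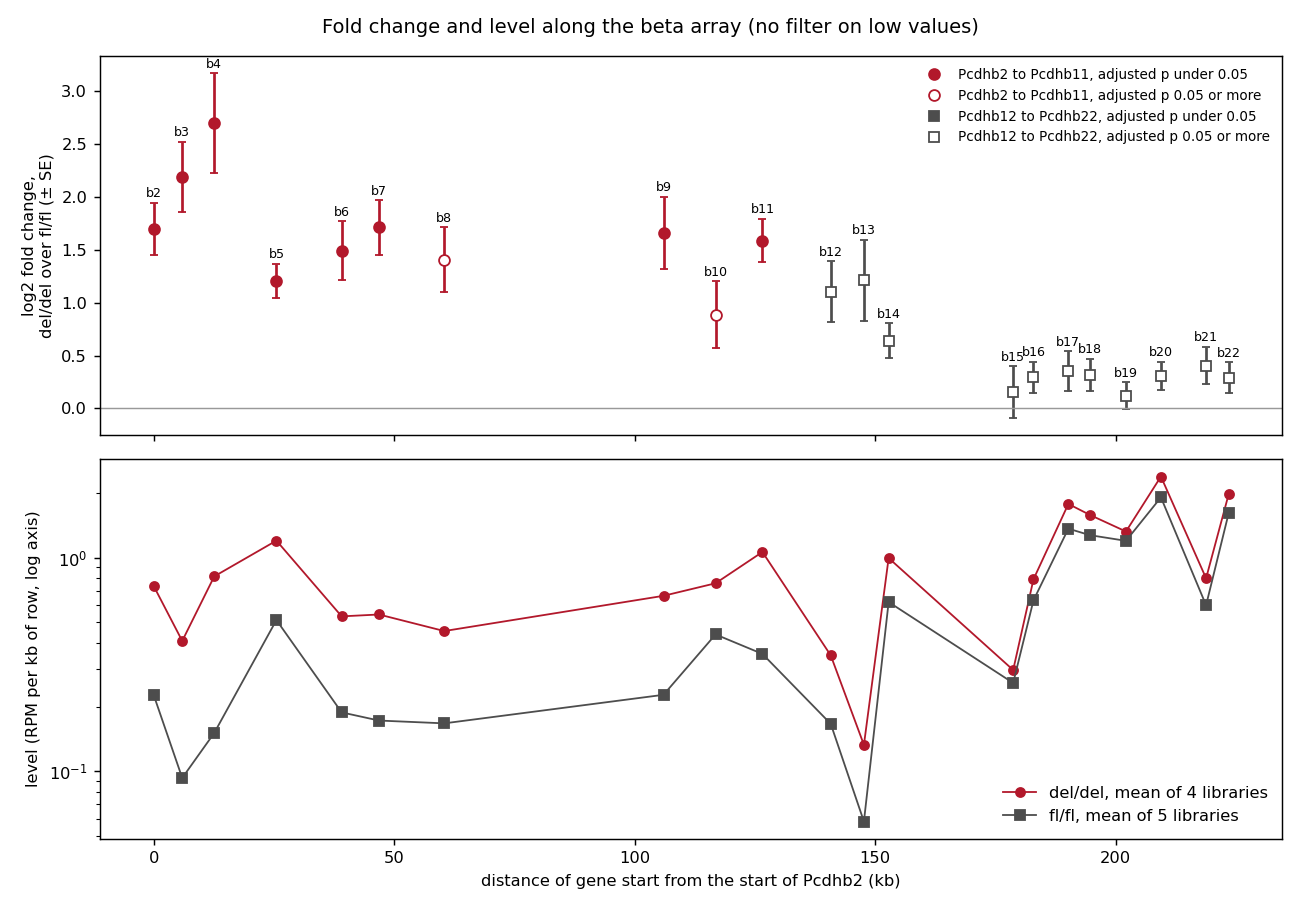
Top, log2 fold change ± SE (del/del over fl/fl, limma with no filter on low values) of Pcdhb2 to Pcdhb22 against the distance of each row's start from that of Pcdhb2 (kb), filled where the adjusted p is under 0.05; bottom, mean RPM per kb (log axis) in 4 del/del and 5 fl/fl libraries. Log2 fold changes of Pcdhb2 to Pcdhb11 run from 0.89 to 2.70. Pcdhb12 (1.10) and Pcdhb13 (1.21) lie within that range, Pcdhb14 is at 0.64, and Pcdhb15 to Pcdhb22 run from 0.12 to 0.41. The highest mean level in both groups is that of Pcdhb20.

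Genes around and behind the array were read from fixed lists. Of 12 kept neighbours of the protocadherin arrays on chromosome 18, 0 passed by limma, and the smallest p belonged to Fchsd1 (0.31, adjusted p = 0.792) and Taf7 (-0.16, adjusted p = 0.997). Of 21 kept genes that encode regulators of protocadherin promoters or of silencing, such as CTCF and cohesin subunits, only Smchd1 changed. The row with the next smallest p, 4933421E11Rik, was at 0.18 (adjusted p = 0.802). Of 9 kept genes of protocadherin signalling, 1 rose (background 1.45%): Ptk2b, which encodes the kinase Pyk2 that protocadherins restrain, at 2.21 (SE 0.26, adjusted p = 0.00751). No other gene of the 9 had a log2 fold change above 0. Cyfip2, a subunit of the WAVE complex, was at -0.22 (adjusted p = 0.905).

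Markers of cell types were read beside the members. All 12 neural stem cell markers were kept and 0 passed by limma, with summed levels of 575 to 791 RPM in del/del and 540 to 1110 RPM in fl/fl, and the smallest p belonged to Notch1 (0.24, adjusted p = 0.858) and Msi1 (0.17, adjusted p = 0.980). Of 10 astrocyte markers 3 rose (background 1.45%), Gfap (2.07, adjusted p = 0.0194) and Aqp4 (1.66, adjusted p = 0.0231) first. Log2 fold changes were above 0 for 7 of the 10, and the lowest was -0.096. The summed list ran from 380 to 484 RPM in del/del and from 313 to 568 RPM in fl/fl. Of 9 kept neuronal markers 2 rose (background 1.45%), the neurofilament genes Nefm (1.49, adjusted p = 0.00428) and Nefl (1.25, adjusted p = 0.00751). Log2 fold changes of this list were above 0 for only 5 of the 9, with a median of 0.015 and a lowest value of -0.50. The neuronal list summed to 288 to 344 RPM in del/del and 248 to 430 RPM in fl/fl, and Slc17a6 had at most 3 reads in every library. The part of these astrocyte and neuronal genes in the protocadherin differences was not tested.

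The lists of 4 further cell types showed no call. For oligodendrocytes 0 of 7 passed, led by Bcas1 (-0.26, adjusted p = 0.613), with sums of 201 to 232 RPM in del/del and 170 to 308 RPM in fl/fl. For microglia 0 of 4 passed, led by Cd68 (0.59, adjusted p = 0.164) and P2ry12 (-0.12, adjusted p = 0.997), with sums of 113 to 125 RPM in del/del and 98.1 to 132 RPM in fl/fl. For fibroblasts 0 of 2 passed, Thy1 (0.80, adjusted p = 0.0848) and Acta2 (0.28, adjusted p = 0.803), with sums of 57.6 to 83.9 RPM in del/del and 36.9 to 64.9 RPM in fl/fl, and Lum had no read. For endothelium 0 of 3 passed, led by Flt1 (1.84, adjusted p = 0.106) and Kdr (0.61, adjusted p = 0.497), with sums of 5.48 to 9.91 RPM in del/del and 3.57 to 6.81 RPM in fl/fl.

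The library descriptions come in 2 spellings, and 6 libraries (lines 2, 3 and 5) carry the prefix RNA-. The labels do not say what the prefix means. Within these 6, all 9 members tested stayed higher in del/del, by 0.88 to 2.90 on the log2 scale. Pcdhb5, Pcdhb6, Pcdhb7 and Pcdhb11 passed (background 1.24%), a count under the same limit of the filter. The other 3 libraries hold only line 1 as a pair, where all 10 genes were higher in del/del.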

How the data were processed

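RNA-seq of 9 libraries was analysed. The authors deposited 1 table of 25965 genes in which each level is a log2 RPM value. Of the steps before deposit, bcl2fastq, TopHat2 (2.0.12), edgeR (3.8.2) and the build mm10 appear in the submitters' processing notes, while counter, annotation and strandedness were not given in the sources used here. Whole reads were recovered from the deposited log2 values (at least 99.9961% of values whole in every library, tolerance 0.05 reads, with 0 reads entered as 0.9), so that reads, counting intervals (95%, Poisson for levels and exact binomial for ratios, covering counting error only) and a detection floor of 3 reads could be given.

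Tests used the 14044 genes that reached a log2 RPM of 0 in 3 or more libraries. The lmFit and eBayes functions of limma 3.58.1 (R 4.3.3, trend, two-sided) were run on the deposited values, and p-values were adjusted by Benjamini-Hochberg over all kept genes, threshold 0.05. Both sexes were fitted with sex as covariate (6 residual degrees of freedom), and the sexes apart as 4 group means (5 residual degrees of freedom). Rose and fell mean past that threshold. The calculation was tested on simulated data.

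Same numbers mark parts of 1 line per the labels' protocols. The deviations of same-line female cultures from their group means correlated across genes at 0.87, 0.58 and 0.76 (lines 1, 2 and 3). Different lines gave -0.84 to 0.73, the highest for del/del 2 with fl/fl 3, above line 2 itself. The pairing rests on the labels, and a fit with line as replicate block was an alternative. Others were log2(RPM + 1), no filter, quantile normalization, median centring, voom on the recovered reads (249 genes called higher over both sexes), no sex term, the 6 libraries with an RNA- prefix, and each library left out. The fits with no filter and the line block, and with no filter and a library left out, were added after seeing that Pcdhb8 missed the filter.

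Named genes were the members, Smchd1, the 2 kept genes of smallest p from each list, and the 5 genes most correlated with the members' mean (Gm and Rik names excluded there). One gene that this rule names is not reported here. The wider array was described gene by gene after its values were seen. Members and lists were chosen with earlier results of these data known. Shared 50-base words and gene models came from GENCODE vM21 (mm10). No sequences are printed.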

Additional observations from a re-analysis of the deposited data

Results flagged for a closer look

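In 33 tests of single libraries against the rest of their group or of single lines against the other lines, 4 values stood apart by Dixon's criterion, where chance flags about 1 in 20. The Pcdhb4 level of female fl/fl 2, -3.01 log2 RPM on 3 reads, lay below the other fl/fl libraries at -0.76 to -0.44. The Pcdhb4 difference in line 2 that follows from it was 4.87 on the log2 scale, against 1.84 to 2.19 in lines 1, 3 and 5. The Pcdhb9 level of female del/del 1, 1.35 log2 RPM, lay above the other del/del libraries at 0.86 to 0.93. The Smchd1 difference in line 2 was -1.76, against -1.02 to -0.96 in the other lines. On the scale of listed reads the differences were -1.27, -1.26, -1.07 and -1.11 in lines 1, 2, 3 and 5. Line 2 lay within the range of the other lines there. Both line 2 values involve the shallowest library. The part of its depth in these values was not tested.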

How the results depend on the processing

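Over both sexes 6 of 9 members rose in the filtered test (background 1.45%). Counts with the filter carry the limit given above, and nothing is read from them. The count was 2 after quantile normalization (background 0.612%), where Pcdhb5 and Pcdhb11 passed. It was 10 of 10 with no filter and the replicate block (background 3.91%), a fit whose limit is given with its count above. Leaving out 1 library gave 0 to 6 calls with the filter and 0 to 8 without it. Both lowest values came without male del/del 5, where the comparison rests on females alone. Among females the count of 0 became 2 on log2(RPM + 1), 1 with no filter, 1 with voom and 7 with the replicate block. The backgrounds of these female counts are given above. Counts under the other settings stayed within 1.5 times. Over both sexes every member's log2 fold change stayed positive in all alternatives run. Signs reversed only where no member had passed. After quantile normalization the sex difference of Pcdhb3 became 0.11, and female against male fl/fl became -0.19 for Pcdhb3 and 0.21 for Pcdhb9. With 1 library left out, the sex difference ran from -0.082 to 0.15 for Pcdhb5 and from -0.038 to 0.90 for Pcdhb9. Female against male fl/fl then ran from -0.11 to 0.60 (Pcdhb3), -1.17 to 0.11 (Pcdhb4), -0.082 to 0.43 (Pcdhb6), -0.72 to 0.22 (Pcdhb9), -0.19 to 0.94 (Pcdhb10) and -0.069 to 0.25 (Pcdhb11). The cause was not tested, except that leaving out a library removes samples by construction. Over both sexes, with the 10 runs added after seeing the data included, Pcdhb5 and Pcdhb11 each passed in 26 of 28 alternatives, Pcdhb4 in 14 of 28 and Pcdhb10 in 1 of 28. Reads limit the members most in female fl/fl 2, where they had 3 to 52, and levels near the 3-read floor there carry most of the counting error.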
